A study of Mus musculus with 30 samples.

Results

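The 2-cell stage genes described here are 9 mouse genes, *Zscan4c*, *Zscan4d*, *Zscan4f*, *Usp17la*, *Usp17lc*, *Usp17ld*, *Tcstv1*, *Tcstv3* and *Zfp352*, out of 55487 genes in each count table. They were listed by name, as genes known to mark the 2-cell embryo, and every one of them is in the tables. RNA was sequenced from 23 single preimplantation embryos of *Dis3* heterozygous matings, with dams that had been hormonally stimulated. At E2.5 there were 6 WT, 2 het and 4 null embryos. At E2.75 there were 3 WT, 5 het and 3 null embryos. A null embryo carried the *Dis3* allele without exons 3–5 on both chromosomes, and a het embryo carried it on 1 of its 2. More than 1 line with the deletion had been made, and the labels do not say which line an embryo came from. The founders came from B6D2F1 embryos, whereas the reference genome is that of C57BL/6J. The same study also holds peak lists of POU6F1-mCherry in embryonic stem cells.

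At the 2-cell stage the mouse embryo first transcribes its own genome on a large scale, and a small set of genes is switched on briefly there and is silent again within the next divisions. Many of them lie in clusters of near-identical copies. *Zscan4* genes encode zinc finger proteins with a SCAN domain that act in telomere maintenance, *Usp17l* genes encode deubiquitinating enzymes of the DUB/USP17 family, *Tcstv* genes encode small proteins named for 2-cell transcripts, and *Zfp352* encodes a zinc finger protein. In cultured embryonic stem cells the same genes come on together in rare cells that are called 2C-like, downstream of the transcription factor DUX. At E2.5 and E2.75, when embryos are at the 8-cell to morula stage, these genes are usually low.

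The copies differ at few bases, which decides what a count of uniquely assigned reads can say, so the most divergent 60-base stretch of each family's coding sequence is shown, 5′ to 3′ on the coding strand, with the positions that differ within the family in capitals. The 3 *Zscan4* members lie on chromosome 7 in GRCm38, and the stretches are those at chr7:11009507-11009566 (+ strand), chr7:11162351-11162410 (- strand) and chr7:11401700-11401759 (+ strand). They differ at 6 positions.
Zscan4c: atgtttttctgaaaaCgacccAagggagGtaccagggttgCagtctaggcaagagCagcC
Zscan4d: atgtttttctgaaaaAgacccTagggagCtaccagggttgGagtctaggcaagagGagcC
Zscan4f: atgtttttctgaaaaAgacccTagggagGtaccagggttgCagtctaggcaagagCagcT
The 2 *Tcstv* members lie on chromosome 13, and their stretches at chr13:119893642-119893701 (- strand) and chr13:120317960-120318019 (+ strand) differ at 9 positions.
Tcstv1: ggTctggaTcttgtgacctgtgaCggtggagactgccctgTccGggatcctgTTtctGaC
Tcstv3: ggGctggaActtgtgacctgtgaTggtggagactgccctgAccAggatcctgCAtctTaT
The 3 *Usp17l* members lie on chromosome 7, and their stretches at chr7:104861358-104861417 (+ strand), chr7:103418668-103418727 (+ strand) and chr7:103250496-103250555 (- strand) differ at 11 positions.
Usp17la: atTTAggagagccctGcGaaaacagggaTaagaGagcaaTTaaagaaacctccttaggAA
Usp17lc: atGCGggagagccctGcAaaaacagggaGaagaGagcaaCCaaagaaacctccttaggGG
Usp17ld: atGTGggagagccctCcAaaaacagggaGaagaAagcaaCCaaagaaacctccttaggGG

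Outside these stretches the copies were closer still. Of 1518 aligned coding positions, 38 differed among the 3 *Zscan4* members, and the longest stretch without a difference was 233 bases. For *Tcstv1* and *Tcstv3* 34 of 513 aligned positions differed, with a longest identical stretch of 119 bases. For the *Usp17l* members it was 164 of 1635, with a longest identical stretch of 90 bases. Members also have close copies that are no members. The transcript of *Zscan4c* was 99.3% identical to *Zscan4-ps2*, and 8 other *Zscan4* genes, the members among them, were over 90% identical to it over most of its length. *Tcstv1* had 5 such copies, the member *Tcstv3* among them, and *Usp17ld* had 3, the members *Usp17la* and *Usp17lc* among them. *Zfp352* had 1, the pseudogene *Zfp353-ps*, at 95.2% identity over 72.5% of its transcript.

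The share of each gene's exons that occurs only once in the genome followed from these copies. *Zscan4f* had the least unique sequence, with 2.92% of its 50-base exonic windows and 6.75% of its 100-base windows found once. For *Zscan4c* it was 15.4% and 28.8%, and for *Zscan4d* 48.7% and 72.5%. *Usp17ld*, *Usp17lc* and *Usp17la* had 49.6%, 51.8% and 75.9% of unique 50-base windows. *Tcstv1* had 58.9%, *Tcstv3* 65.5% and *Zfp352* 91.0%. No library has a read listed as mapped to several places, so reads that fit several copies equally well were not counted. A count of *Zscan4f* or *Zscan4c* therefore stands for a small part of the transcript, levels of copies cannot be ranked from it, and the founders' other parental strain may differ from the reference at these bases. *Zfp352* was the member least limited by copies.

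**Figure D1:**
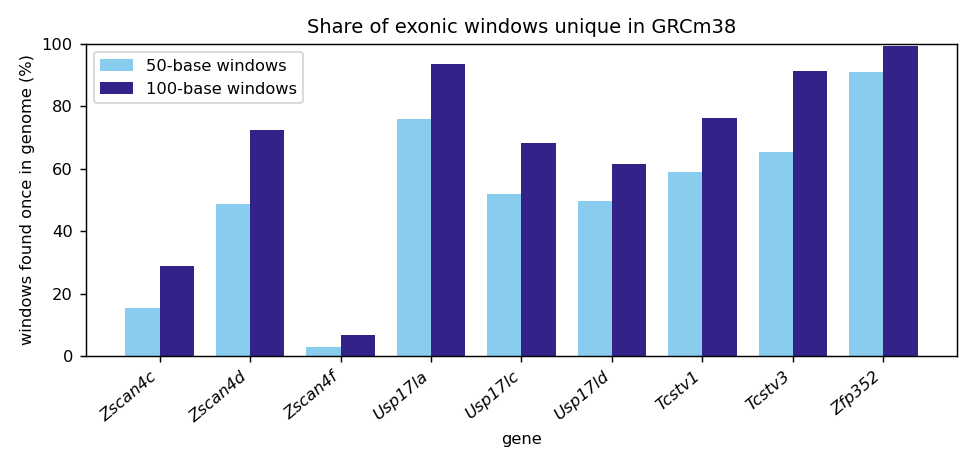
Share of exonic windows of 50 and 100 bases (vertical axis, percent) that occur once in GRCm38, for each of the 9 genes (horizontal axis). *Zscan4f* had 2.92% and *Zfp352* 91.0% of unique 50-base windows, and longer windows raised the share in all 9 genes.

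Promoters were nearly alike within the *Zscan4* and *Usp17l* families as well. Whether this bears on the levels was not tested. RefSeq's promoter table (GRCm38.p6) matched 7 of the 9 members, all but *Tcstv1* and *Tcstv3*. The 120 bases before the annotated start are printed for the 3 *Zscan4* members, at chr7:11005625-11005744 (+ strand), chr7:11166149-11166268 (- strand) and chr7:11397795-11397914 (+ strand), with TATAAA in capitals.
Zscan4c: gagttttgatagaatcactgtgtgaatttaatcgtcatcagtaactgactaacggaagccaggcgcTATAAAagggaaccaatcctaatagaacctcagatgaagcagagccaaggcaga
Zscan4d: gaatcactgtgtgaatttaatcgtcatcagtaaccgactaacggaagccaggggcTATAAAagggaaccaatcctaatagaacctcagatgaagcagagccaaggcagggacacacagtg
Zscan4f: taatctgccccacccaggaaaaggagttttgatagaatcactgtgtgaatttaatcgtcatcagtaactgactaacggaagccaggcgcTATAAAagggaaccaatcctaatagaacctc
For 2 of the *Usp17l* members they lie at chr7:104856896-104857015 (+ strand) and chr7:103252506-103252625 (- strand).
Usp17la: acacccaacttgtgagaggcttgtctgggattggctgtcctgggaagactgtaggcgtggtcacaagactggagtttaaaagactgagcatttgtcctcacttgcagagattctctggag
Usp17ld: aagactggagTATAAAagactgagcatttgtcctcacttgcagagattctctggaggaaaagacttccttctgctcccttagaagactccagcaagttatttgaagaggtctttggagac
For *Zfp352*, the least repeated gene of the list, they lie at chr4:90218700-90218819 (+ strand).
Zfp352: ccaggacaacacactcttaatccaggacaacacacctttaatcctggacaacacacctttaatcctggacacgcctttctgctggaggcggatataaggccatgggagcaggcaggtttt
The *Zscan4c* and *Zscan4f* stretches were identical over 97 bases that align, and *Zscan4c* and *Zscan4d* were 98.1% identical over 108. TATAAA stood on the gene's strand in the windows of 5 of the 7 members, *Zscan4c*, *Zscan4d*, *Zscan4f*, *Usp17lc* and *Usp17ld*. It began 54, 65 and 31 bases before the annotated start in *Zscan4c*, *Zscan4d* and *Zscan4f*, and 88 and 110 bases before it in *Usp17lc* and *Usp17ld*. Of 27025 promoters in the table, 4.54% held TATAAA on that strand within the same 120 bases, and 6.76% on either strand. The 5 members are near-identical copies within their families, so they are not 5 separate cases to set against that share. A match of letters is a description of the window and not a measured site.

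The total of gene counts ran from 1690192 to 14015980 per embryo. *Dis3* had 40.2 CPM (counts scaled to library size with TMM factors) or more in 8 of 9 WT embryos, 30.4 to 59.2 CPM in the 7 het embryos and 0 to 21.5 CPM in the 7 null embryos. The exception was E2.5 WT replicate 6, at 18.0 CPM, within the range of the null embryos. *Dis3* was called lower in null than in het embryos (log2 fold change −2.06 ± 0.53 (SE), edgeR adjusted p = 0.0253). Reads outside annotated exons took 32.3% to 43.9% of a null library and 20.99% to 33.4% of the others, and null libraries were shallower, with a median of 4808323 gene counts against 8895879 in het and 8644043 in WT. The part of these differences in the results was not tested. All 13 of the 8-cell and morula genes checked, such as *Pou5f1*, *Cdx2* and *Krt8*, were detected. Nothing in the labels says that embryos came from separate litters, so the p-values measure the spread between these embryos.

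A single embryo, the E2.75 het replicate 2, held a large part of all the counts of these genes. It had 2758 of the 5937 counts of the 9 genes, or 46.5%, although its library was the shallowest outside the null group, with 3009380 gene counts. It was the only embryo with counts of all 9 genes. The other 22 embryos had counts of 0 to 6 of them, with a median of 3, and E2.5 null replicate 4 had none. The summed level of the 9 genes was 831 CPM in that embryo and at most 84.7 CPM in any other, in E2.75 WT replicate 1. As a single embryo it allows no test between groups. Within the 5 E2.75 het embryos its summed level passed Dixon's 95% critical value for an outlier, with a gap to the next embryo of 0.975 of the range against 0.71. The embryo was singled out for these same values, so the gap describes its distance and is no test.

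**Figure D2:**
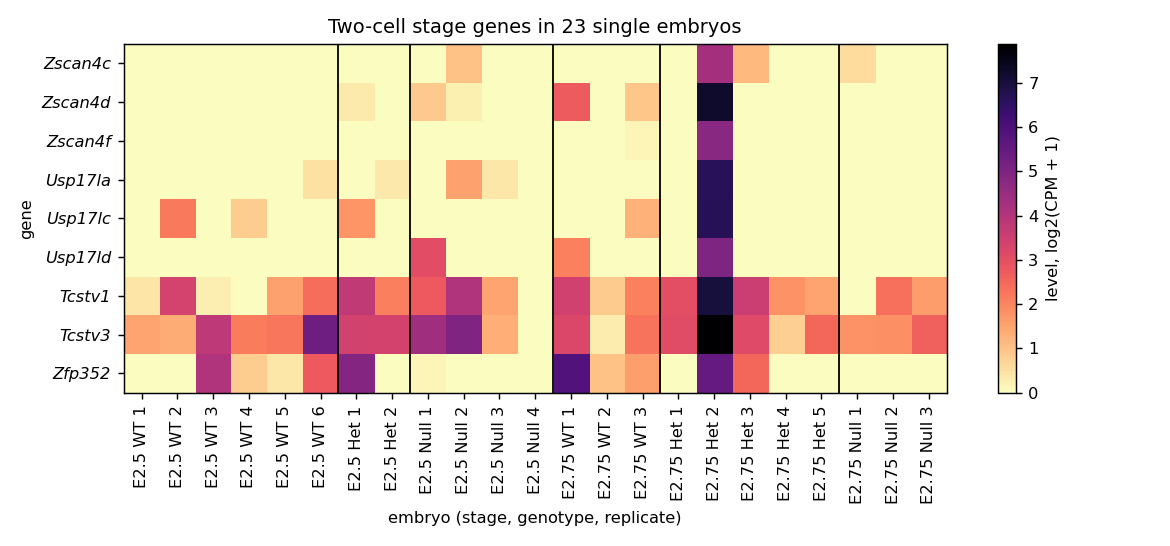
Level of each of the 9 genes (rows) in each of the 23 embryos (columns, by stage, genotype and replicate), as log2(CPM + 1) in colour; black lines part the groups. The column of E2.75 Het replicate 2 is filled in all 9 rows, *Tcstv1* and *Tcstv3* have counts in most embryos, and *Zfp352* is at or near 0 in all 7 null embryos.

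The *Zscan4* genes showed it most sharply. *Zscan4d* had 496 counts (149 CPM) in the E2.75 het replicate 2. It had 21 counts in E2.75 WT replicate 1, 9 in E2.75 WT replicate 3, 8 in E2.5 null replicate 1, 2 in E2.5 het replicate 1 and 1 in E2.5 null replicate 2, and 0 in the other 17 embryos. The highest of these others was at 5.59 CPM, so the level was 26.7 times that of the next embryo. *Zscan4c* had 61 counts (18.4 CPM) in the same embryo, 15 in E2.75 het replicate 3, 6 in E2.5 null replicate 2 and 1 in E2.75 null replicate 1, with 0 in the other 19. *Zscan4f* had 89 counts (26.8 CPM) there, 1 in E2.75 WT replicate 3 and 0 in the other 21. A count of 0 allows up to 3 counts, which is 0.194 to 1.54 CPM depending on the library, for counting error only.

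The order of the 3 *Zscan4* genes in that embryo changed with the share of unique sequence. Per kilobase of exon, *Zscan4d* was at 65.8, *Zscan4f* at 13.7 and *Zscan4c* at 8.08 CPM. Per 1000 unique 50-base windows the order was *Zscan4f* with 1780 counts, *Zscan4d* with 490 and *Zscan4c* with 190, and with 100-base windows it was 890, 364 and 113. So the data do not say which copy was the most abundant. Together the 3 genes had 646 of their 710 counts, or 91.0%, in the E2.75 het replicate 2.

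The *Usp17l* genes followed the same embryo. *Usp17la* had 323 counts (97.4 CPM) in it, 11 in E2.5 null replicate 2, 4 in E2.5 WT replicate 6, 3 in E2.5 het replicate 2 and 1 in E2.5 null replicate 3. *Usp17lc* had 334 counts (101 CPM) in it, 25 in E2.5 WT replicate 2, 19 in E2.5 het replicate 1, 14 in E2.75 WT replicate 3 and 7 in E2.5 WT replicate 4. *Usp17ld* was the least exclusive, with 103 counts (31.0 CPM) in it, 69 in E2.5 null replicate 1 and 12 in E2.75 WT replicate 1. In all other embryos these 3 genes were at 0. They had 760 of their 925 counts, or 82.2%, in the E2.75 het replicate 2, and the next embryo by level stood 31.9 times lower.

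The *Tcstv* genes and *Zfp352* were less confined. *Tcstv1* had 128 CPM in the E2.75 het replicate 2 and at most 15.5 CPM in another embryo, E2.5 null replicate 2. *Tcstv3* had 235 CPM in it and at most 38.4 CPM elsewhere, in E2.5 WT replicate 6. These 2 genes had 34.7% of their 3476 counts there. *Zfp352* was not highest in that embryo: it had 44.3 CPM there, 57.8 CPM in E2.75 WT replicate 1 and 28.3 CPM in E2.5 het replicate 1. Across the 8 genes other than *Zfp352*, the level in the E2.75 het replicate 2 was 4.33 to 265 times that of the next embryo, and at the upper end, for *Zscan4f*, the next embryo had 1 count.

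Other *Zscan4* and *Usp17l* genes behaved alike in that embryo, and so did some of the neighbours of the *Tcstv* genes. All 6 other *Zscan4* genes and pseudogenes were highest there, with 877 of their 990 counts. Of these, *Zscan4b* and *Zscan4e* had 33 and 66 counts there and 0 in the other 22 embryos. Over all 9 annotated *Zscan4* genes the share was 89.6% of 1700 counts, close to the 91.0% of the members alone. Of the 3 other *Usp17l* genes annotated, *Usp17lb* and *Usp17le* had counts, and both were highest there, at 149 and 106 CPM. Over all annotated *Usp17l* genes the share was 75.6% of 2124 counts, against 82.2% for the members alone. Of 36 genes within 300 kb of *Tcstv1* or *Tcstv3*, 22 had a count and 10 were highest there. Members and neighbours together had 7.80% of 65481 counts there, against 34.7% for the *Tcstv* members alone. Of the 65481, *Hmgcs1*, *Zfp131* and *Tmem267* had 20545, 18898 and 8404 counts, and they are not among the close copies of the *Tcstv* members. Among the 10 were *BC147527* at 255 CPM against at most 8.25 CPM elsewhere and *Gm21818* at 183 against 15.8 CPM. Unlike *BC147527*, *Gm21818* is among the close copies of *Tcstv1* and *Tcstv3*. Their other close copies that are no members, *AF067061*, *Gm21761* and *Gm20767*, were also among the 10. So the 10 are not all separate from the *Tcstv* members in sequence. These names were chosen after their values were seen.

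**Figure D3:**
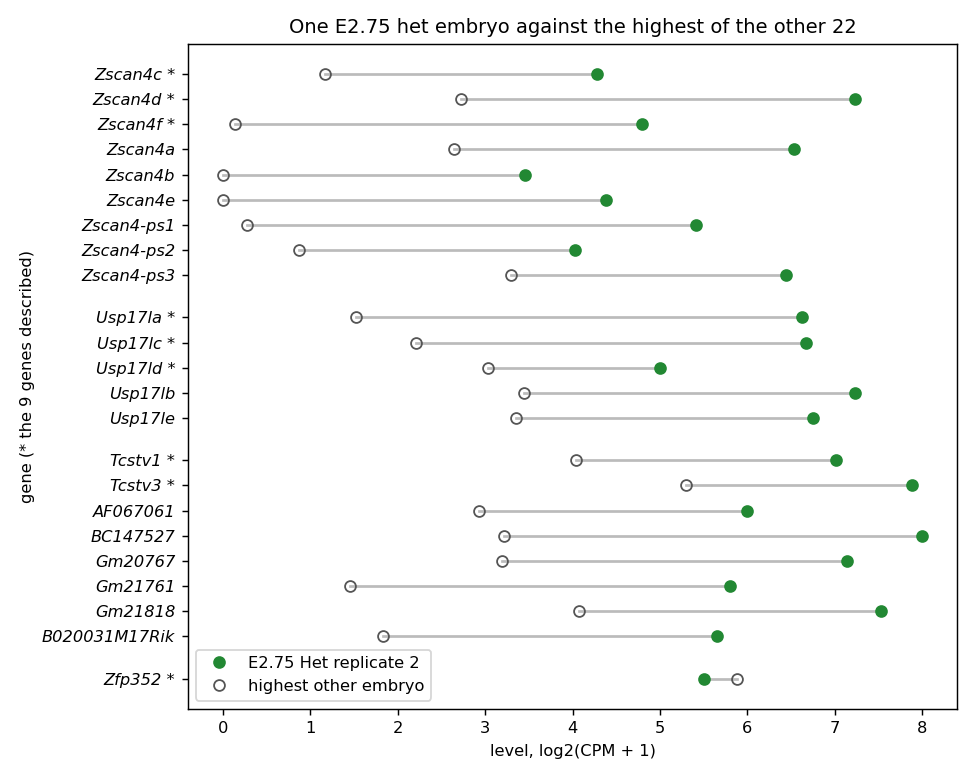
Level of *Zscan4*, *Usp17l* and *Tcstv* genes, of 6 neighbours of *Tcstv1* or *Tcstv3* and of *Zfp352* (vertical axis, members starred) in E2.75 Het replicate 2 (filled) and in the highest of the other 22 embryos (open), as log2(CPM + 1). All genes shown but *Zfp352* are higher in that embryo, and *Zfp352* is at 44.3 against 57.8 CPM. The 6 neighbours shown were taken from the 10 of 36 that were highest in that embryo.

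The wider program of the 2-cell stage was partly present in it. Of 43 other 2-cell and 2C-like genes with annotation, 33 had a count in any embryo, 31 had one in this embryo and 20 were highest in it, where 4.24% of all 33616 genes with a count were highest. Their summed level was 2062 CPM, against at most 1679 CPM in another embryo, E2.5 null replicate 2. Examples are *Gm13078* at 116 CPM against at most 2.52 CPM elsewhere and *Tmem92* at 147 against 22.1 CPM, both named after their values were seen. *Dppa2* and *Dppa4*, which encode nuclear proteins that act upstream of DUX, were at 278 and 213 CPM there, within the range of the other embryos, up to 570 and 586 CPM. *Duxf3* was at 0 in all 23 embryos. Reads that fit several places were not counted, and the unique share of *Duxf3* was not measured. Its 0 therefore does not show that the gene was silent. The summed level of the 8-cell and morula genes was 3619 CPM, the 8th highest of 23, and that of 15 oocyte and maternal genes 49.4 CPM, the 17th. Cumulus and granulosa cell genes summed to 18.99 CPM, the 19th, with 5 of 12 detected. The Spearman correlation of its library with those of the other E2.75 het embryos had a median of 0.891 across tested genes, which lay within the 0.823 to 0.911 of the other embryos with their own groups. *Dis3* was at 30.4 CPM, the lowest of the het embryos.

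The genotypes were then compared with edgeR, and a gene was called where its log2 fold change was over 1 in size at an adjusted p under 0.1. Only *Tcstv1*, *Tcstv3* and *Zfp352* had enough counts to be tested with the stages combined. *Zfp352* was called lower in null than in het embryos and in null than in WT embryos. It passed the filter on low counts only through the WT and het embryos, since the null embryos had 1 count in all, so that a gene admitted in this way had to be lower in null embryos. *Tcstv1* and *Tcstv3* were not called in any comparison. The other 6 genes were tested only in part of the comparisons or not at all, because most embryos had none of their reads. Among all 13415 genes tested, 2.06% were called lower in null than in het embryos and 1.59% lower in null than in WT embryos, and 1 of 3 tested members in each. With so few members tested, and this one admitted by the groups where it is high, nothing is read from that share.

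*Zfp352* (ENSMUSG00000070902, GRCm38 chr4:90218820-90225702, plus strand) was nearly without reads in null embryos. The 7 null embryos together had 1 count, in E2.5 null replicate 1, of 35566982 gene counts. In WT embryos at E2.5 the level ran from 0 to 15.7 CPM with a median of 0.544, and at E2.75 the 3 WT embryos had 57.8, 1.00 and 2.03 CPM. The 2 het embryos at E2.5 had 28.3 and 0 CPM, and the 5 at E2.75 had 0, 44.3, 4.73, 0 and 0. So 7 of 9 WT embryos, 3 of 7 het embryos and 1 of 7 null embryos had a count, and the groups overlapped at 0.

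The log2 fold change of *Zfp352* was −8.03 ± 2.17 (SE) for null against het, with an edgeR adjusted p of 0.0344, and −7.77 ± 2.14 for null against WT, with an edgeR adjusted p of 0.0371. Fitted folds of a gene with 1 count in a group depend on the prior count. Pooled over embryos, het had 434 counts and WT 391 against that 1 count, a ratio per total count of 252 with a 95% exact counting interval of 44.9 to 9957 for het, and of 173 with 30.9 to 6852 for WT. Single embryos carried much of these counts. Without E2.5 het replicate 1, which had 230 of the 434, the ratio was 136, and without E2.75 WT replicate 1, which had 217 of the 391, it was 80.3. The intervals cover counting error only and not the spread between embryos. Without the E2.75 het replicate 2 the null against het value was −7.07 ± 2.13 (edgeR adjusted p = 0.0649). An exact two-sided permutation of embryos on mean log2(CPM + 1), added after the values were seen and adjusted over 6 tests, gave p = 0.385 for null against het and p = 0.0378 for null against WT. Without E2.5 WT replicate 3 or 6, or without E2.75 WT replicate 1 or 3, the gene no longer passed the filter on low counts and neither comparison was tested by edgeR. Nor was it tested when only the 2 genotypes compared were fitted, so both calls rest on a fit that holds all 3 genotypes. Without E2.5 WT replicate 6 the unadjusted exact permutation p for null against WT was 0.0112. These values come from a gene admitted by the groups where it is high, so they are descriptions and no support for a difference.

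*Tcstv1* (ENSMUSG00000096284) was spread over all groups. WT embryos at E2.5 had 0 to 9.15 CPM with a median of 1.14, and those at E2.75 had 9.85, 0.780 and 3.24. The het embryos at E2.5 were at 12.4 and 3.34 CPM, those at E2.75 at 7.06, 128, 10.5, 2.48 and 1.79. The null embryos at E2.5 were at 5.72, 15.5, 1.83 and 0 CPM, those at E2.75 at 0, 4.10 and 2.08. The groups overlapped, and only the single het embryo stood out. The log2 fold change of *Tcstv1* was −2.47 ± 1.14 for null against het (edgeR adjusted p = 0.257) and −0.58 ± 1.10 without that embryo (edgeR adjusted p = 0.857).

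*Tcstv3* (ENSMUSG00000095821) had a median of 6.10 CPM per kilobase of exon over the 23 embryos, against 2.32 for *Tcstv1*. Their unique shares differ, at 65.5% and 58.9% of 50-base windows, so this does not rank the copies. For *Tcstv3*, WT embryos at E2.5 had 1.60 to 38.4 CPM with a median of 3.57, and those at E2.75 had 8.25, 0.223 and 3.85. The E2.5 het embryos were at 9.58 and 9.28 CPM, the E2.75 ones at 7.57, 235, 7.72, 0.71 and 4.75. The E2.5 null embryos were at 19.6, 30.1, 1.53 and 0 CPM, the E2.75 ones at 2.46, 2.56 and 5.26. The groups overlapped here too. The log2 fold change for null against het was −2.12 ± 1.10 with all embryos and 0.42 ± 0.98 without the E2.75 het replicate 2, so its direction rested on that embryo, and the edgeR adjusted p was 0.326 and 0.887.

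**Figure D4:**
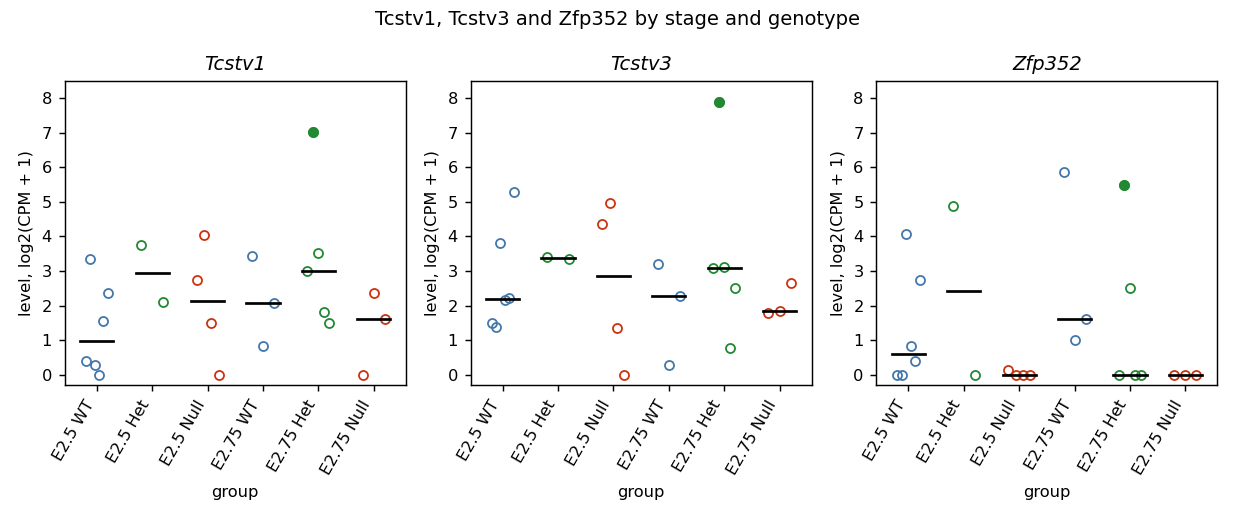
Levels of *Tcstv1*, *Tcstv3* and *Zfp352* as log2(CPM + 1) (vertical axis) by stage and genotype (horizontal axis), 1 circle per embryo and a bar at the group median; the filled circle is E2.75 Het replicate 2. The null circles of *Zfp352* lie at 0 or 0.104 CPM, while those of *Tcstv1* and *Tcstv3* lie among the other groups.

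**Figure D5:**
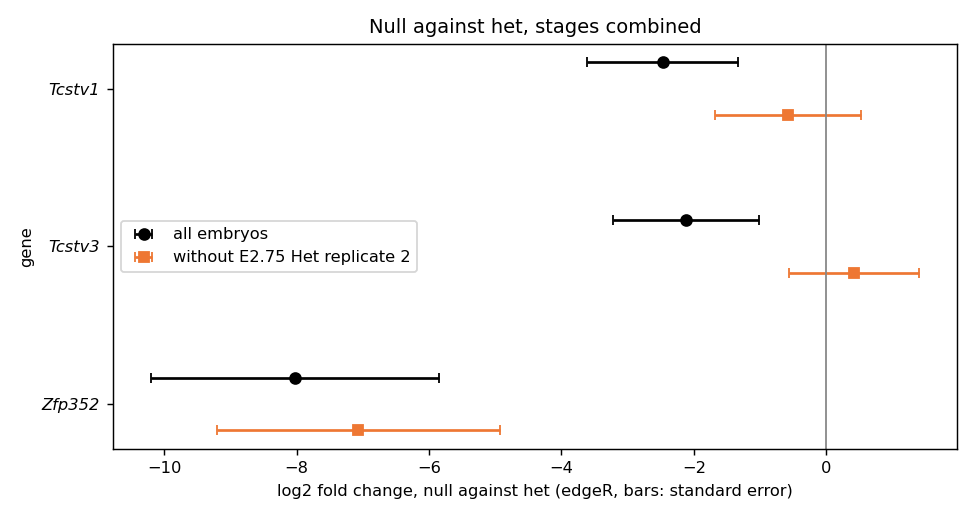
Log2 fold change of null against het embryos with stages combined (horizontal axis, edgeR, bars are the standard error) for *Tcstv1*, *Tcstv3* and *Zfp352* (vertical axis), with all embryos (circles) and without E2.75 Het replicate 2 (squares). *Tcstv1* moves from −2.47 to −0.58 and *Tcstv3* from −2.12 to 0.42, whereas *Zfp352* stays at −7.07 or lower.

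Het and WT embryos did not differ in a called way. No gene of the whole table was called by edgeR in this comparison (0% of 13415), while 934 had an unadjusted p under 0.05 and DESeq2 called 37 higher and 28 lower. *Tcstv1* had a log2 fold change of 2.85 ± 1.05 and *Tcstv3* of 2.24 ± 1.01, with edgeR adjusted p of 0.611 and 0.702 and unadjusted p under 0.05 in both, and DESeq2 called 0 members. Without the E2.75 het replicate 2 these values were 0.94 ± 1.03 and −0.32 ± 0.93. The level of *Tcstv1* in the 6 remaining het embryos was 6.27 ± 4.46 CPM (SD, n = 6), against 3.30 ± 3.80 CPM in WT (SD, n = 9) and 4.17 ± 5.39 CPM in null embryos (SD, n = 7).

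Within a stage edgeR called none of the members. At E2.5, 4 members were tested, and 1 of them, *Zfp352*, had an unadjusted p under 0.05 in null against het and in null against WT. DESeq2 called 0 members in the first and *Zfp352* in the second. The share of genes called in either direction was 0.0126% and 1.82%. The log2 fold change of *Zfp352* was −8.16 ± 2.72 for null against het and −6.18 ± 2.41 for null against WT, and the first was 1.67 without E2.5 het replicate 1. At E2.75, 3 members were tested, and the share of genes called was 4.82% for null against het and 4.54% for null against WT. All 3 had an unadjusted p under 0.05 in null against het, with values of −3.90 ± 1.53 for *Tcstv1*, −3.86 ± 1.60 for *Tcstv3* and −9.13 ± 3.93 for *Zfp352* (edgeR adjusted p from 0.203 to 0.254). Without the E2.75 het replicate 2 the first 2 were −1.45 ± 1.28 and −0.61 ± 1.16. In null against WT only *Zfp352* had an unadjusted p under 0.05 (−10.19 ± 4.00, edgeR adjusted p = 0.193). DESeq2 called 0 members in either. At both stages *Zfp352* was again admitted to the edgeR test only through the WT and het embryos. The null embryos had 1 count of it at E2.5 and 0 at E2.75. Its values and calls within a stage are therefore descriptions and no support for a difference.

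The stages were compared within each genotype for 8 members, all but *Zscan4f*, and edgeR called none. In WT embryos 7.38% of all genes were called between E2.75 and E2.5, in het embryos 0.278% and in null embryos 3%. In WT embryos 2 members, *Zscan4d* and *Usp17ld*, had an unadjusted p under 0.05. *Zscan4d* was at 0 in all 6 WT embryos at E2.5 and had 21 and 9 counts in 2 of 3 at E2.75 (edgeR adjusted p = 0.133). *Usp17ld* had 12 counts in 1 WT embryo at E2.75 and 0 in the other 8 (edgeR adjusted p = 0.211). In het and null embryos 0 members had an unadjusted p under 0.05, and DESeq2 called 0 in WT and het and *Zfp352* in null embryos, where its only count was 1 read at E2.5. For the difference between the stage effects of null and WT embryos, 0% of 18677 genes were called by edgeR, while 2046 had an unadjusted p under 0.05 and DESeq2 called 220 up and 124 down. *Zscan4d* and *Usp17ld* had an unadjusted p under 0.05, with edgeR adjusted p of 0.396 and 0.366, and DESeq2 called *Zfp352*.

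The share of other 2-cell genes called was near that of all genes and is no result about them. Of 22 tested with the stages combined, 0 were called higher and 1 lower in null than in het embryos, where 3.67% of all genes were called higher and 2.06% lower, with a median log2 fold change of −0.04 against 0.02 over all genes. In null against WT 1 was called higher and 1 lower, where it was 3.66% and 1.59% of all genes, with a median of −0.12 against −0.02. *B020004J07Rik* was the one that was lower in both, with −5.40 ± 1.31 for null against het (edgeR adjusted p = 0.0163) and −4.53 ± 1.25 for null against WT (edgeR adjusted p = 0.0375). It had 0 to 1.66 CPM in the 7 null, 0.259 to 118 CPM in the 7 het and 1.02 to 48.7 CPM in the 9 WT embryos. The groups overlapped only at their ends, and its 118 CPM were in the E2.75 het replicate 2. Like *Zfp352*, this gene was admitted to the test by the WT and het embryos, where it is high. Nothing is read from its calls. *Tdpoz2*, of a family of TRAF and POZ domain proteins, went the other way, with 1.68 ± 0.51 for null against WT (edgeR adjusted p = 0.0615) and levels of 13.7 to 101 CPM in null against 4.08 to 31.8 CPM in WT embryos. *Ubtfl1*, a gene of the preimplantation embryo that encodes an HMG-box protein, fell from E2.5 to E2.75 in null embryos, by 2.36 ± 0.42 on the log2 scale (edgeR adjusted p = 0.00841), and in WT embryos, by 1.14 ± 0.38 (edgeR adjusted p = 0.0814). Of 10 tested neighbours of the *Tcstv* genes, 1, *Tmem267*, was called higher and 1 lower in null than in het embryos. The lower was *BC147527* (−5.13 ± 1.71, edgeR adjusted p = 0.0957), which had 847 of its 1175 counts in the E2.75 het replicate 2. With the stages combined, 0 of the 6 other *Zscan4* genes had enough counts to be tested, and of the 3 other *Usp17l* genes 1 was tested and not called.

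The members' levels moved together over embryos only in part. On log2(CPM + 1), the summed *Zscan4* and *Usp17l* members had a Pearson correlation of 0.896 over the 23 embryos and of 0.533 without the E2.75 het replicate 2. Summed *Tcstv* and *Zscan4* members went from 0.701 to 0.397, and *Tcstv1* and *Tcstv3* from 0.722 to 0.529. *Zfp352* and the *Usp17l* members went from 0.531 to 0.288. These embryos share depth and the many zeros, and the values are descriptions. The genes most like *Tcstv3* on log2 CPM over 23 embryos were *BC147527* (r = 0.820), *Lmx1a* (0.760) and *Kdm4dl* (0.755). For *Tcstv1* they were *Ankrd16* (0.696), *Slc7a7* (0.677) and *Pygl* (0.675), and for *Zfp352* *Gm28940* (0.799), *Gm4971* (0.733) and *Nid2* (0.709). Without the E2.75 het replicate 2, *Tcstv3* with *BC147527* was at 0.721, *Tcstv1* with *Pygl* at 0.822 and *Zfp352* with *Gm28940* at 0.747.

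The peak lists of POU6F1-mCherry, made with MACS2, 4 in all, held no peak within 1000 bases of the start of any of the 9 genes, where 36.9% of 55227 annotated genes had one in at least 1 of the 4 lists and 7.12% in all 4. The nearest peak lay 53870 bases from a start of *Usp17la*. The authors kept uniquely mapping reads for these lists, so copies that are identical over the length of a read could give no peak, which touches *Zfp352* least. The lists were made in embryonic stem cells and not in embryos.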

How the data were processed

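Single-embryo RNA-seq of 23 embryos was analysed, grouped by the stage, genotype and replicate that the labels name. Polyadenylated RNA was captured on oligo-dT beads. Per the labels and the study's methods, the authors used Cutadapt 3.4 for trimming by quality and minimum length, STAR 2.7.8a for alignment (GRCm38) and HTSeq 0.11.4 for counting (mode intersection-strict, strand ignored). Each deposited file holds raw counts for the genes of a single embryo. Read length is not given in the sources used here. For the ChIP-seq, the authors called peaks with MACS2 2.2.7.1, and the deposited lists hold a score, a fold enrichment as a ratio and −log10 p and q values, of which only the positions were used here.

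Gene positions and exons came from GENCODE vM21 (GRCm38), which held 55227 of the 55487 identifiers. Neither spike-ins nor summary lines entered a fit. Of each library, 20.99% to 43.9% of reads fell outside annotated exons and 1.89% to 2.73% were ambiguous. The test was that of edgeR 4.0.16 under R 4.3.3 (quasi-likelihood, TMM, filterByExpr with a minimum count of 10, Benjamini-Hochberg over all genes tested). The stages were combined by genotype, fitted apart and compared in a fit with 6 groups. The SE given with an edgeR log2 fold change is the size of that change divided by the square root of its F statistic. For a gene nearly without counts in a group it depends, like the fold, on the prior count. The alternatives were RLE factors, ERCC scaling, no filter, DESeq2 1.42.0, the replicate number as a block, a stage term, only the 2 genotypes compared, and each embryo left out. Intervals are exact at 95% and a count of 0 was taken to allow 3 counts, for counting error only. Unique windows are exact matches on both strands of the primary GRCm38 sequences, and copies were aligned with BLAST+ 2.17.0 and MAFFT 7.526. The fits were tested on simulated data: for null against het with stages combined, 79% of 200 genes changed 16-fold and 33.5% of 200 changed 4-fold were called, with 12586 and 12652 genes in the fit. For null against het it was 40% and 9.5% at E2.5, and 68.5% and 31.5% at E2.75. Between the stages in WT embryos it was 49% and 23%. The changed genes were drawn from all genes that passed the filter, so the rate for genes with counts in few embryos was not measured.

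The 38 pairs of embryos of the same group differed by more than sampling noise. The members and gene lists were chosen with earlier results of these data known. All 9 members are named. Of the other 2-cell genes those called in any comparison are named, at most 12, and for each tested member the 3 most correlated genes. *Dis3* is named as the check of the genotypes. Other names, marked or not, were not set by this rule and are to be read as chosen after their values were seen.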

Additional observations from a re-analysis of the deposited data

Results flagged for a closer look

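In groups of 4 to 6 embryos, a value was picked out when its gap to the nearest other embryo, divided by the group's range, passed Dixon's 95% critical value. Of 21 groups with a count, 17 passed, 16 of them with over 3 counts. A rate of about 1 in 20 by chance holds only for values with a normal spread, so it is no measure here. Many of these groups are at 0 in all embryos but 1, which this measure always picks out. In all 9 genes the E2.75 het replicate 2 stood apart from the other 4 het embryos of its stage. Its levels were 18.4 CPM for *Zscan4c*, 149 for *Zscan4d*, 26.8 for *Zscan4f*, 128 for *Tcstv1*, 235 for *Tcstv3*, 44.3 for *Zfp352*, 97.4 for *Usp17la*, 101 for *Usp17lc* and 31.0 for *Usp17ld*. Why it stood apart was not tested.

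The other values were spread over 5 embryos. E2.5 null replicate 2 had 1.02 CPM of *Zscan4c* and 1.87 CPM of *Usp17la*, and E2.5 null replicate 1 had 7.17 CPM of *Usp17ld*. E2.5 WT replicate 6, the WT embryo with *Dis3* in the range of null embryos, had 38.4 CPM of *Tcstv3* and 0.388 CPM of *Usp17la*. E2.5 WT replicate 3 had 15.7 CPM of *Zfp352*, and E2.5 WT replicate 2 had 3.63 CPM of *Usp17lc*.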

How the results depend on the processing

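Counts of called members moved with the setting. Null against het with stages combined went from 1 called member to 3 with ERCC scaling, 5 without the filter on low counts and 0 when only the 2 genotypes were fitted, where *Zfp352* was not tested, and lay between 0 and 1 when an embryo was left out. Null against WT with stages combined went from 1 to 0 when only the 2 genotypes were fitted and to 0 with the replicate number as a block (*Zfp352* −6.72, edgeR adjusted p = 0.123), and lay between 0 and 1 when an embryo was left out. Null against het at E2.5 went from 0 to 1 with ERCC scaling, and at E2.75 from 0 to 3 with ERCC scaling and 8 without the filter. Null against WT went from 0 to 1 with DESeq2 at E2.5 and to 2 without the filter at E2.75. The stage effect went from 0 to 1 with ERCC scaling and 2 without the filter in WT, to 1 without the filter in het and to 1 with DESeq2 in null embryos. Its difference between null and WT went to 2 without the filter and 1 with DESeq2. Apart from fewer genes or embryos, the cause was not tested.

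Some log2 fold changes of *Tcstv1*, *Tcstv3* and *Zfp352* turned. With DESeq2, *Tcstv3* was at 0.46 for null against het and −0.34 for het against WT. ERCC scaling gave −0.19 for *Tcstv1* and −0.32 for *Tcstv3* in null against WT, and −0.82 for *Tcstv3* in null against het at E2.5. It also shifted the median of all genes by over 0.1, to −1.08 for null against het and −0.37 for null against WT, and made the E2.75 het replicate 2 the highest in *Zfp352*. The exact permutation gave −0.040 for *Tcstv3* in null against WT. The replicate block gave −1.33 for *Zfp352* between stages in WT. The numbers did not pair the embryos: same-numbered embryos correlated at −0.106 to 0.0858 over 17 pairs.

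With 1 embryo left out at a time, *Tcstv1* ran from −0.49 to 0.77 for null against WT, −1.70 to 0.78 for null against het at E2.5 and −0.37 to 1.74 between stages in WT. *Tcstv3* ran from −2.85 to 0.42 for null against het, −0.61 to 1.02 for null against WT, −0.32 to 3.14 for het against WT and −0.45 to 0.81 for null against het at E2.5. *Zfp352* ran from −0.74 to 0.48 for het against WT, −9.84 to 1.67 for null against het at E2.5 and −1.28 to 3.86 between stages in WT. With stages combined, it was called in null against het and in null against WT in 19 of 23 such fits each, at edgeR adjusted p of 0.0241 to 0.0840 for null against het. In the other 4, without E2.5 WT replicate 3 or 6 or E2.75 WT replicate 1 or 3, it was not tested. All these fits share the filter that admitted *Zfp352* through the groups where it is high, so they lend its call no support. Where this left 1 het embryo at E2.5, that embryo was assumed to vary like the other groups.

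With stages combined, 6 of 9 genes had too few counts to be tested, and reads shared by copies are missing from these counts.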
